A study of Bos taurus with 8 samples.

Results

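The genes described here carry the transforming growth factor beta (TGF-beta) signal from storage to receptor: the ligands TGFB1, TGFB2 and TGFB3, the receptors TGFBR1, TGFBR2 and TGFBR3, and the latent TGF-beta binding proteins LTBP1, LTBP2, LTBP3 and LTBP4. Members were all probes whose gene name in the scanner files was one of these 10 symbols. This gave 23 of 43653 probes and 9 of 12617 genes that were fitted. No probe carried the name LTBP4, which was not analysed here. The set was assembled around LTBP3, which was chosen by its log2 signal in EEF1D-1893 against control because it came close to a call there. The values of that contrast are therefore a description, and no p-value of a member is given for it.

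Transcripts were measured on 8 one-colour Agilent bovine arrays of primary mammary epithelial cells from a lactating Holstein cow, taken at the fifth passage. A group of 3 arrays came from cells with the EEF1D-1357 short hairpin RNA (shRNA) and a group of 3 from cells with the EEF1D-1893 shRNA, which are both directed at EEF1D, the delta subunit of translation elongation factor 1. The other 2 arrays are controls, labelled as cells without shRNA. The sample labels name a non-targeting shRNA for none of the arrays, but it is uncertain whether the control cells held a negative control construct, since an abbreviation in the deposited file names is not explained. If they held none, carrying any shRNA and lowering EEF1D cannot be told apart as sources of a difference. All cells trace to a single animal as far as the labels say. The labels do not state that replicates were separate cultures, so p-values measure the spread between these arrays, which may be technical.

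TGF-beta is secreted as a latent complex in which the ligand stays wrapped in its own propeptide. Binding proteins of the LTBP family tie this complex to the extracellular matrix, and integrins, proteases and thrombospondin release the active ligand. Active ligand binds TGFBR2, which recruits and phosphorylates TGFBR1, and TGFBR1 passes the signal to SMAD proteins that act in the nucleus. In the mammary gland the pathway is known for restraining epithelial growth and milk protein synthesis and for its part in involution.

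The values are log2 of the processed spot intensity minus the 75th percentile of the same array. A value of 0 is therefore the brightness at that percentile, and a difference of 1 is a doubling of signal. Over the arrays the 75th percentile lay between 1276 and 2102 intensity units, 60.7% to 71.6% of probes were well above background, and 0 probes were saturated. Between the 2 controls the log2 difference had a standard deviation of 0.83 over genes, against 0.50 to 0.73 for pairs of arrays within an shRNA group. The file headers place the EEF1D-1357 arrays on slide 1 with control replicate 2, and the EEF1D-1893 arrays on slide 2 with control replicate 1. For this reason differences of the member genes, and of some other genes, are also given against the control of the same slide. The EEF1D-1357 and EEF1D-1893 arrays share no slide. In the contrast between the shRNAs, shRNA and slide therefore cannot be told apart from the shRNA arrays alone. Each slide holds a lone control, so any estimate of slide rests on the difference between these controls. Both contrasts with control use the same 2 control arrays, so their values are set side by side and not compared. The EEF1D probe A_73_115715 read 5.97, 5.85 and 5.09 with EEF1D-1357, 5.99, 5.74 and 5.76 with EEF1D-1893, and 7.11 and 6.14 in the controls. This is the brightest of 4 EEF1D probes that were kept, and the others are not described here. In it all 6 shRNA arrays were below both controls. Of all genes, 16.9% had both shRNA groups wholly on the same side of the controls. The log2 difference of EEF1D was -0.99 (SE 0.36, limma adjusted p = 0.263) with EEF1D-1357 and -0.80 with EEF1D-1893. Against the control of the same slide it was -0.50 and -1.29.

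Markers of the labelled cell type were present. Of 8 luminal epithelial markers 7 were measured, and all 7 were well above background on every array. Their summed level, as log2 of the sum, was 8.73 to 8.81 with EEF1D-1357, 8.72 to 8.94 with EEF1D-1893, and 9.70 and 8.81 in control replicates 1 and 2. Of 8 basal and myoepithelial markers all 8 were measured, 7 of them well above background on every array and OXTR on 2. Their summed level was 7.57 to 7.77, 7.23 to 8.33, and 8.20 to 8.26 in the same group order. With EEF1D-1357 against control 0 of the 8 were above 0 and 8 below, with a median log2 difference of -0.91 beside -0.09 over all genes. With EEF1D-1893 1 was above and 7 below, with a median of -0.28 beside -0.03. Fibroblast markers were also detected, with 8 of 9 measured but only 3 well above background on every array, and PDGFRB was not detected on enough arrays to be kept. Of 7 leukocyte markers 5 were measured (PTPRC, CD3D, CD14, CD68 and CD74), all well above background on every array, and CD3E and CSF1R were not kept. Their summed level was 2.45 to 2.96 with EEF1D-1357, 2.0 to 2.6 with EEF1D-1893 and 2.44 to 2.99 in the controls. Of 6 endothelial markers 3 were measured, VWF on every array and CDH5 and CLDN5 on 2 and 3 arrays, while PECAM1, KDR and TEK were not kept. Of 3 adipocyte markers only PLIN1 was measured, on 3 arrays, and ADIPOQ and LEP were not kept. The part of these cell types in the members' values was not tested. In such bulk RNA, fewer cells of a type and less RNA per cell cannot be told apart.

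Each probe is a DNA oligonucleotide of about 60 bases, given in the scanner files with its place on the bovine build HGSC Btau_3.1. An annotation of exons for that build was not used here, so the exon or untranslated region under a probe is not named. The sequences below belong to the probes on which the results turn. They are printed 5′ to 3′ in lower case, whole where the probe covers a longer genomic stretch than its own length and thus crosses a splice junction, and otherwise as a part of at most 30 bases. The LTBP3 and LTBP1 sequences mark probes of a gene that gave different values, the TGFBR3 sequence belongs to a set of probes that gave like values, and in the TGFB3 sequence the capitals mark AATAAA, the usual polyadenylation signal.
LTBP3 A_73_P061581, first 30 bases: gccggccttccttccagagggcatttcccc
LTBP3 A_73_P340681: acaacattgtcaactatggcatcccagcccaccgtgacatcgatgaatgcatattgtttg
LTBP3 A_73_113395, first 30 bases: gagaaacacttactgctctcgggctccagg
LTBP1 A_73_P491048: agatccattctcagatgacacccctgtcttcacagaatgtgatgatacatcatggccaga
LTBP1 A_73_P049696, first 30 bases: ggagtaagagagaagctaacataacctaag
TGFBR3 A_73_P167787: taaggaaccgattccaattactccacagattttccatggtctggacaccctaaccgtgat
TGFB3 A_73_120809: ttgtttctaaacAATAAAagcc

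On the strand given, AATAAA occurred in 9.35% of all 43653 probes and in 1 of the 23 member probes. No stretch longer than 10 bases was shared between probes of different members. The brightest probe of a gene, by its mean over all arrays, gave the gene's value. All 9 of these probes were well above background on every array.

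None of the 8 members tested beside LTBP3 differed between cells with EEF1D-1357 and control cells in limma after Benjamini-Hochberg adjustment over all genes, and 0 of 8 had an unadjusted p under 0.05. In that contrast 0.0% of the 12617 genes were called, and 16.2% had an unadjusted p under 0.05. The same held between EEF1D-1357 and EEF1D-1893, where 0 of 8 members passed either threshold beside 0.0% of all genes called and 6.41% at an unadjusted p under 0.05. With EEF1D-1893 against control 0.0% of all genes were called too. Adjusted p ran from 0.311 to 0.904 in the first contrast and from 0.793 to 1.0 in the second. Non-overlap, meaning that every array of a group lay on the same side of every array of the other, was found with EEF1D-1357 against control for TGFBR1 and TGFBR2 above and LTBP3 below the controls. Of all genes 12.2% lay wholly above and 18.5% wholly below in that contrast, so 2 and 1 of 9 members are near the background. With EEF1D-1893 against control, TGFB3 and TGFBR1 lay above and LTBP3 below, beside 13.7% and 14.6% of all genes. Between the shRNAs only LTBP3 of the 9 members was apart, with EEF1D-1357 above, where 6.71% of all genes were. The median log2 difference of the 9 genes was -0.16 with EEF1D-1357 and -0.17 with EEF1D-1893, against medians of -0.09 and -0.03 over all genes.

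**Figure D1:**
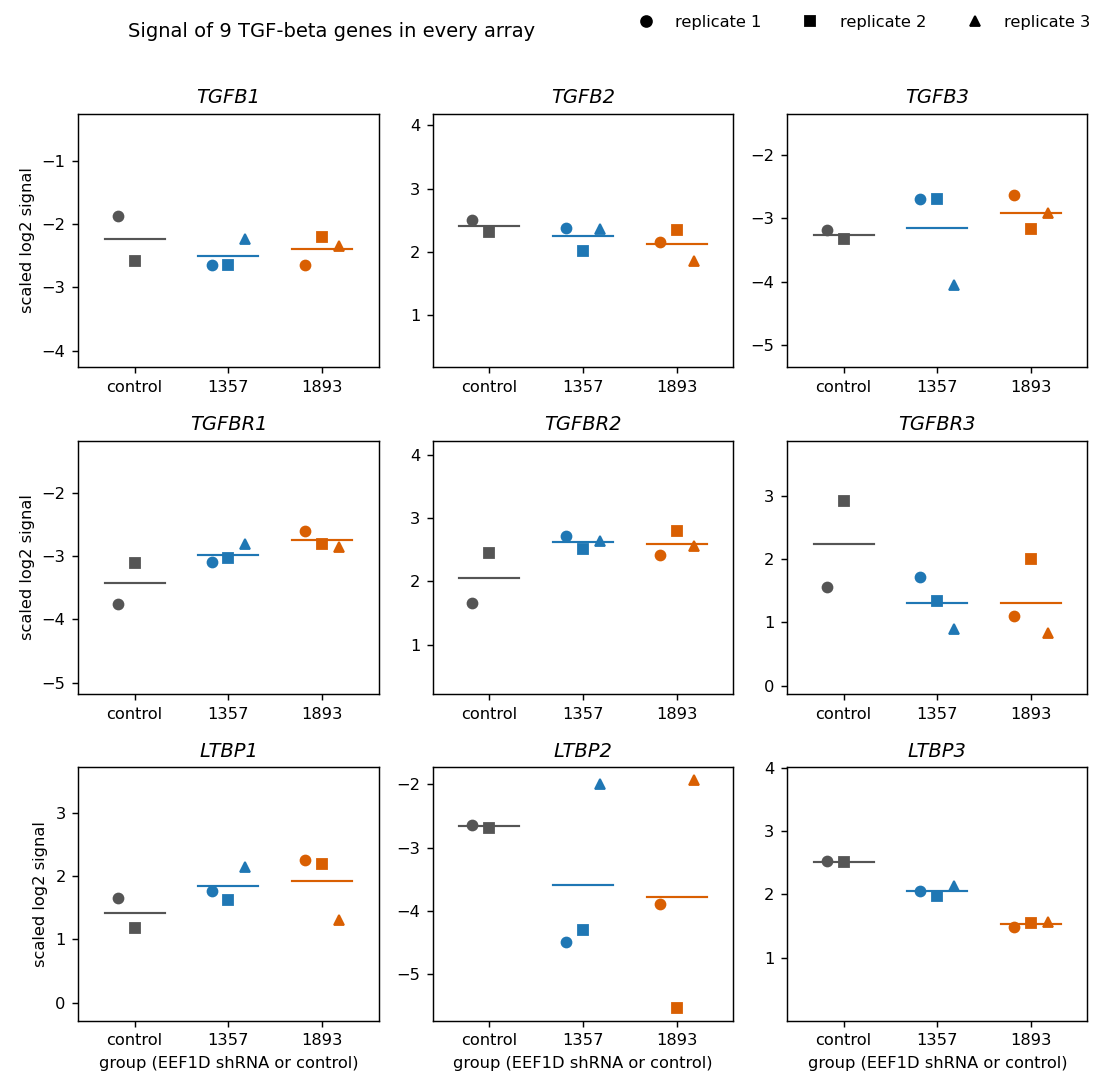
Scaled log2 signal (y axis, log2 units relative to the array's 75th percentile) of the 9 measured genes in control, EEF1D-1357 and EEF1D-1893 arrays (x axis). Symbols are single arrays by replicate number and horizontal lines are group means, and every panel spans the same number of log2 units. LTBP3 is the panel in which the 3 groups stand apart, at 2.53 and 2.51, 1.97 to 2.13, and 1.48 to 1.57.

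The ligands are the signal itself. TGFB1, the form made by most cell types, had a single probe, A_73_111797 at chr18:50176062-50176825 (minus strand, across a splice junction). It read -2.64, -2.65 and -2.23 with EEF1D-1357, -2.64, -2.20 and -2.35 with EEF1D-1893, and -1.87 and -2.59 in the controls. Control replicate 1 was the highest array and control replicate 2 lay among the shRNA arrays, so the groups overlapped. The log2 difference was -0.28 with EEF1D-1357 (SE 0.26, 95% confidence interval -0.90 to 0.34, limma adjusted p = 0.589) and -0.17 with EEF1D-1893. Against the control of the same slide the values were 0.08 and -0.53. Without control replicate 1 the sign turned with both shRNAs, to 0.08 with EEF1D-1357 and 0.19 with EEF1D-1893.

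TGFB2, the form that depends most on the co-receptor TGFBR3 for binding, was read by A_73_P038731 at chr16:20930945-20931004 (plus strand). Its signal was 2.38, 2.01 and 2.36 with EEF1D-1357, 2.16, 2.35 and 1.86 with EEF1D-1893, and 2.50 and 2.32 in the controls. All 3 groups overlapped. The log2 difference from control was -0.16 with EEF1D-1357 (SE 0.20, interval -0.63 to 0.31, limma adjusted p = 0.679) and -0.29 with EEF1D-1893. Against the control of the same slide it was -0.08 with EEF1D-1357 and -0.38 with EEF1D-1893. Between the shRNAs it was 0.12, with an interval of -0.30 to 0.54.

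TGFB3, known for its part in palate closure and in the start of mammary involution, had 3 probes on chromosome 10. A_73_P373726 (chr10:89828216-89828275, minus strand) was well above background only in control replicate 1, and A_73_P272261 (chr10:89833030-89835687, minus strand) on 0 arrays, so neither gives a difference. The probe with the AATAAA motif, A_73_120809 at chr10:89827728-89827787 (minus strand), read -2.69, -2.69 and -4.06 with EEF1D-1357, -2.64, -3.17 and -2.92 with EEF1D-1893, and -3.19 and -3.33 in the controls. Replicate 3 of EEF1D-1357 was the lowest of the 8 arrays while the other two of that group were above both controls, and the EEF1D-1893 arrays were all above the controls. The log2 difference was 0.11 with EEF1D-1357 (SE 0.42, interval -0.88 to 1.11, limma adjusted p = 0.904) and 0.35 with EEF1D-1893. Against the control of the same slide it was 0.19 with EEF1D-1357 and 0.28 with EEF1D-1893. Leaving out an array in turn moved the EEF1D-1357 value between -0.12 and 0.57. That value was below 0 without EEF1D-1357 replicate 1 or without replicate 2.

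Among the receptors, the kinases TGFBR1 and TGFBR2 had higher means in the shRNA arrays than in the controls and the co-receptor TGFBR3 had lower means by the probe that stands for the gene, and no difference that was tested passed. TGFBR1, the kinase that phosphorylates SMAD2 and SMAD3, was read by A_73_P047601 at chr8:66978001-66978060 (plus strand). It read -3.09, -3.03 and -2.82 with EEF1D-1357, -2.60, -2.81 and -2.86 with EEF1D-1893, and -3.76 and -3.11 in the controls. All 6 shRNA arrays were above both controls, by as little as 0.02 from control replicate 2. The EEF1D-1357 mean was 137% of control (log2 difference 0.46, SE 0.22, interval -0.06 to 0.97, limma adjusted p = 0.339), and the EEF1D-1893 mean was 160% of control (log2 difference 0.68). A second probe, A_73_121253, lies next to it at chr8:66978092-66978146. Its groups overlapped, with log2 differences of 0.11 (SE 0.33, limma adjusted p = 0.878 over probes) and 0.24.

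The size of the TGFBR1 difference depended on which control was used. Against control replicate 2, on its own slide, the EEF1D-1357 difference was 0.13, whereas without control replicate 2 it was 0.78 with a limma adjusted p of 0.0301. Over all alternatives its adjusted p ran from 0.0301 to 0.759. For EEF1D-1893 the difference was 1.0 on its own slide and 0.35 without control replicate 1. The fit without control replicate 2 has a lone control that is assumed to vary like the shRNA arrays, and it called 23.1% of all genes. For EEF1D-1893 the same fit, and a fit with slide as a block, called 14.7% of all genes. LTBP3, TGFBR1 and TGFBR2 were among them, but the members were chosen on this contrast, so these calls do not count as tests.

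TGFBR2, the kinase that first binds the ligand, showed the same dependence. Its probe A_73_P117061 at chr22:5123773-5123832 (plus strand) read 2.71, 2.51 and 2.64 with EEF1D-1357, 2.42, 2.79 and 2.55 with EEF1D-1893, and 1.65 and 2.44 in the controls. Control replicate 1 was the lowest array, while control replicate 2 was above EEF1D-1893 replicate 1. The EEF1D-1357 mean was 149% of control (log2 difference 0.57, SE 0.25, interval -0.01 to 1.15, limma adjusted p = 0.311), and that of EEF1D-1893 was 146% (log2 difference 0.54). On the same slide the differences were 0.18 and 0.94. Without control replicate 2 the EEF1D-1357 difference was 0.97 with a limma adjusted p of 0.0214, within a range of 0.0214 to 0.685 over all alternatives. Without control replicate 1 it was 0.18, and that of EEF1D-1893 was 0.15.

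The other TGFBR2 probe, A_73_P063051, lies upstream at chr22:5119194-5119253. It read -0.25, -0.42 and -0.25 with EEF1D-1357, -0.62, -0.33 and -0.71 with EEF1D-1893, and -0.39 and -0.47 in the controls. Here the controls lay among the shRNA arrays and close to each other. The log2 differences were 0.12 (SE 0.16, limma adjusted p = 0.697 over probes) and -0.12. Between the shRNAs, TGFBR2 differed by 0.03 with an interval of -0.49 to 0.55 and TGFBR1 by -0.22 with an interval of -0.68 to 0.24.

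TGFBR3, also called betaglycan, presents ligand to the receptor kinases. It had 4 probes along chromosome 3 on the plus strand, and all 4 were lower on average in both shRNA groups than in the controls. The most 3′ probe, A_73_105479 at chr3:55148092-55148151, stands for the gene. It read 1.71, 1.33 and 0.90 with EEF1D-1357, 1.10, 2.00 and 0.83 with EEF1D-1893, and 1.56 and 2.91 in the controls. Control replicate 2 was the highest array, and control replicate 1 lay below replicate 1 of EEF1D-1357 and replicate 2 of EEF1D-1893. The EEF1D-1357 mean was 52.7% of control (log2 difference -0.92, SE 0.50, interval -2.09 to 0.24, limma adjusted p = 0.379), and the EEF1D-1893 difference was -0.93. The difference between the shRNAs was 0.00 with an interval of -1.04 to 1.05.

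The other three TGFBR3 probes lie further 5′. A_73_P434896 at chr3:55098656-55098715 read -3.65, -3.95 and -4.28 with EEF1D-1357, -3.92, -3.48 and -4.42 with EEF1D-1893, and -2.94 and -2.31 in the controls. A_73_113136 at chr3:55120207-55120266 read -1.65, -2.05 and -2.53, then -2.28, -1.52 and -2.60, and -1.13 and -0.51 in the same order. In both probes all 6 shRNA arrays were below both controls. The EEF1D-1357 differences were -1.34 (SE 0.33, limma adjusted p = 0.179) and -1.26 (SE 0.39, limma adjusted p = 0.209) over the 30723 probes, of which 0.0% were called and 19.0% lay wholly below the controls. The EEF1D-1893 differences were -1.32 and -1.31, and 15.6% of the probes lay wholly below the controls. For A_73_P167787, whose splice junction lies within chr3:55132348-55134711, the differences were -1.09 (SE 0.45, limma adjusted p = 0.274) and -1.09.

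Averaged over the 4 probes of each array, TGFBR3 read -1.86, -2.17 and -2.56 with EEF1D-1357, -2.32, -1.60 and -2.69 with EEF1D-1893, and -1.53 and -0.56 in the controls. The control values were the highest of the 8 arrays. Replicate 2 of EEF1D-1893 was within 0.07 of control replicate 1. Against the control of the same slide the difference of this mean was -1.64 with EEF1D-1357 and -0.68 with EEF1D-1893. For the most 3′ probe alone, leaving out control replicate 2 gave -0.25 with either shRNA and leaving out control replicate 1 gave -1.60 with either.

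**Figure D2:**
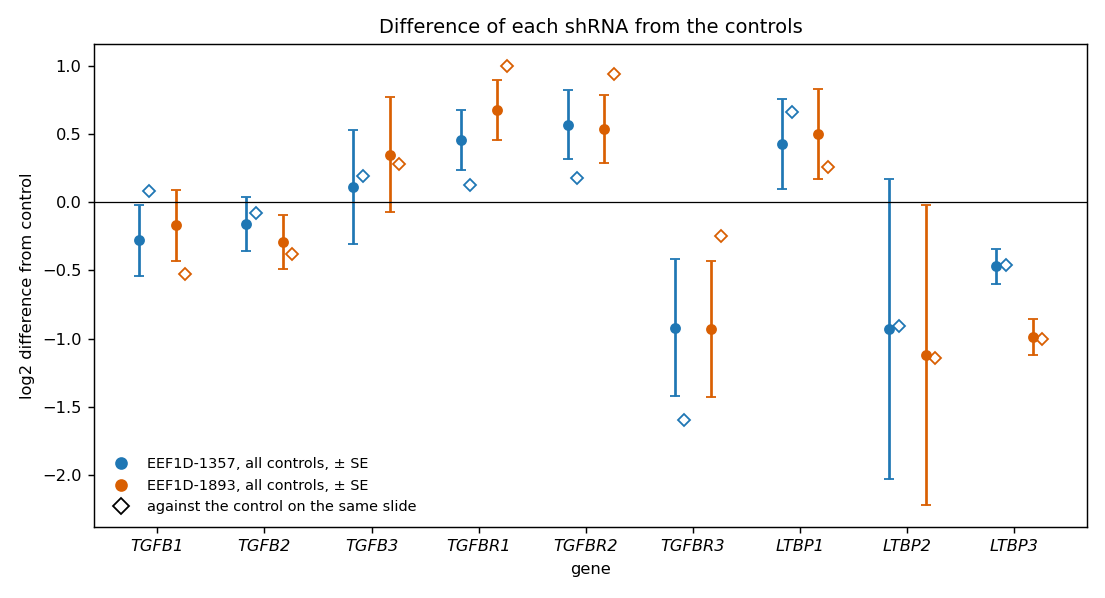
Log2 difference from control (y axis) of each member gene (x axis) for EEF1D-1357 and EEF1D-1893. Filled circles with bars are the limma estimate ± SE against both controls, and open diamonds are the difference against the control on the same slide. The diamonds leave the circles for the receptors and TGFB1. They stay close to the circles for LTBP3, at -0.46 beside -0.47 and at -1.0 beside -0.99. They do so too for LTBP2, at -0.91 beside -0.93 and at -1.14 beside -1.12, and lie near the circles for TGFB2 and TGFB3.

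The latent binding proteins hold the ligand in the matrix. LTBP1, which binds latent TGF-beta and ties it to fibrillin fibres and fibronectin, had 5 probes on the plus strand of chromosome 11. The gene's probe, A_73_P049696 at chr11:16780173-16780232, is the most 3′ of them. It read 1.76, 1.62 and 2.15 with EEF1D-1357, 2.25, 2.19 and 1.31 with EEF1D-1893, and 1.65 and 1.18 in the controls. Replicate 3 of EEF1D-1893 lay between the controls and the other two of its group above them, and in EEF1D-1357 replicate 2 lay between the controls. The log2 difference was 0.43 with EEF1D-1357 (SE 0.33, interval -0.35 to 1.2, limma adjusted p = 0.511) and 0.50 with EEF1D-1893. Without control replicate 2 the EEF1D-1357 difference was 0.19, and without control replicate 1 it was 0.66. Against the control of the same slide the differences were 0.66 with EEF1D-1357 and 0.26 with EEF1D-1893.

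All 5 LTBP1 probes had a mean above control with both shRNAs, and they differed in size. The most 5′ probe, A_73_P491048, crosses a junction within chr11:16162989-16269318. It read -2.97, -3.27 and -2.66 with EEF1D-1357, -2.79, -2.80 and -3.58 with EEF1D-1893, and -4.81 and -3.96 in the controls. All 6 shRNA arrays were above both controls, as 13.2% of the probes were with EEF1D-1357 and 14.0% with EEF1D-1893. Its log2 difference was 1.42 with EEF1D-1357 (SE 0.35, limma adjusted p = 0.179 over probes) and 1.33 with EEF1D-1893. On the same slide it was 0.99 and 1.75.

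The 3 probes between the ends, at chr11:16443435-16443494, chr11:16520357-16520416 and chr11:16740685-16740744, had EEF1D-1357 differences of 0.52, 0.01 and 0.30 and EEF1D-1893 differences of 0.59, 0.21 and 0.49, with overlapping groups. The middle of these, A_73_P391946, was below control by 0.63 with EEF1D-1893 on slide 2 and above by 0.85 with EEF1D-1357 on slide 1. To see whether the 5′ probe stood apart within arrays, its value was set against the mean of the other 4. This gave -2.41, -2.51 and -2.42 with EEF1D-1357, -2.83, -2.53 and -2.65 with EEF1D-1893, and -4.38 and -2.72 in the controls. Control replicate 1 was far below all others and control replicate 2 lay among the shRNA arrays, so the unequal change of the probes rested on 1 control array.

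**Figure D3:**
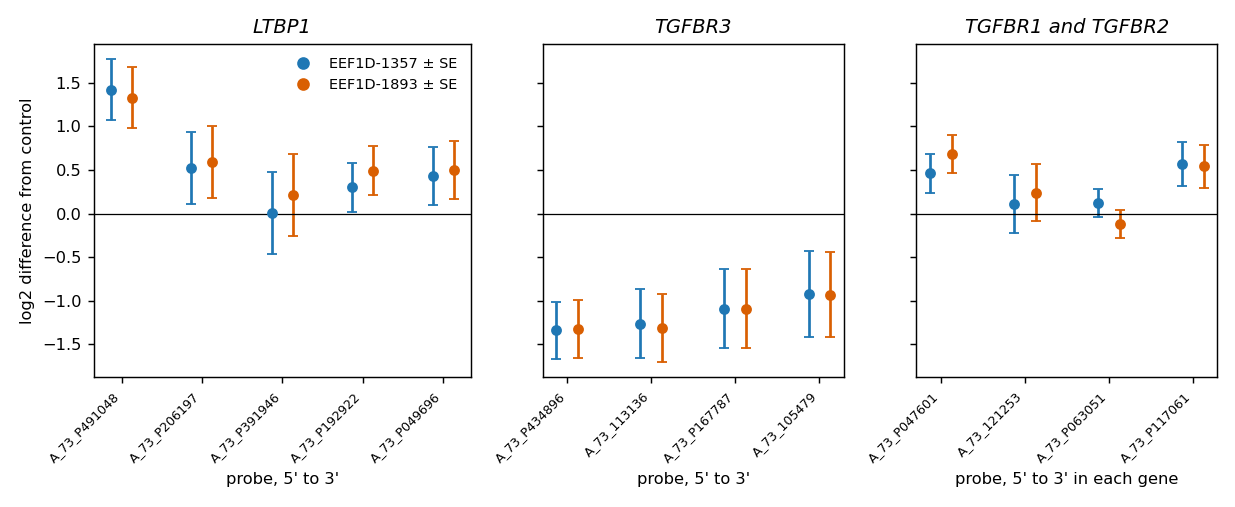
Log2 difference from control ± SE (y axis) of each probe of LTBP1, TGFBR3, TGFBR1 and TGFBR2, ordered 5′ to 3′ in each gene (x axis), for EEF1D-1357 and EEF1D-1893. The 5′ probe of LTBP1 stands at 1.42 and 1.33 above the other 4 of its gene, and the 4 probes of TGFBR3 lie between -1.34 and -0.92.

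LTBP2 is the family member that does not bind latent TGF-beta and belongs to elastic fibres. Its probe A_73_110265 at chr10:88262264-88262323 (minus strand) read -4.49, -4.30 and -2.0 with EEF1D-1357, -3.89, -5.53 and -1.94 with EEF1D-1893, and -2.64 and -2.69 in the controls. The controls lay close together, while replicate 3 of either shRNA was above them and replicates 1 and 2 were below. The SD was 1.38 and 1.79 within the shRNA groups (n = 3) against 0.03 in the controls (n = 2), the widest spread within an shRNA group of the 9 genes. The log2 difference was -0.93 with EEF1D-1357 (SE 1.10, interval -3.53 to 1.67, limma adjusted p = 0.671) and -1.12 with EEF1D-1893. Leaving out an array in turn moved them between -1.73 and -0.48 and between -2.04 and -0.25. Against the control of the same slide the differences were -0.91 with EEF1D-1357 and -1.14 with EEF1D-1893. The second probe, A_73_P384796, was well above background on 7 arrays and had differences of -0.17 (SE 0.37, limma adjusted p = 0.822 over probes) and 0.32.

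LTBP3, which helps latent TGF-beta to be folded and secreted and is known for its part in bone and tooth growth, is on the minus strand of chromosome 29. Its probe A_73_P061581 at chr29:45577719-45577778 read 2.53 and 2.51 in the controls, 2.05, 1.97 and 2.13 with EEF1D-1357, and 1.48, 1.55 and 1.57 with EEF1D-1893. The groups were ordered control, EEF1D-1357 and EEF1D-1893 with no overlap between neighbours. The group means were 2.52 ± 0.02 (SD, n = 2), 2.05 ± 0.08 (SD, n = 3) and 1.53 ± 0.04 (SD, n = 3). The EEF1D-1357 mean was 72.2% of control (log2 difference -0.47, SE 0.13) and that of EEF1D-1893 was 50.4% (log2 difference -0.99, SE 0.13). The shRNAs differed by 0.52 (SE 0.11), with EEF1D-1357 at 143% of EEF1D-1893. LTBP3 was chosen for this pattern, so these are descriptions and carry no test.

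The LTBP3 value of this probe changed little with the control used. It was -0.46 with EEF1D-1357 and -1.0 with EEF1D-1893 on the same slide, and the controls differed by 0.02. Leaving out an array in turn kept it between -0.51 and -0.43 and between -1.01 and -0.96. LTBP3 was chosen on these values, and a small spread favours such a choice, so this closeness is only a description. In its other probes the controls differed by -1.32 (A_73_P340681) and 0.74 (A_73_113395). By p-value, LTBP3 ranked 5 of 12617 genes in EEF1D-1893 against control. It was chosen on this contrast, so the rank describes the choice and is no test. The genes ahead of LTBP3, which were TRAM1L1, GNAO1, ZNF711 and EVX1, were well above background on only 2 or 3 arrays. Next after it came TNIK, with a log2 difference of -1.12 and detected on 8 arrays, and then ASPN, with -2.43 and detected on 2.

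The other two LTBP3 probes gave a different picture. A_73_P340681, whose junction lies within chr29:45579571-45579932, read -2.59, -2.71 and -2.43 with EEF1D-1357, -3.02, -3.10 and -3.23 with EEF1D-1893, and -2.56 and -1.24 in the controls. The EEF1D-1893 arrays were the lowest, as in the first probe, but control replicate 1 lay among the EEF1D-1357 arrays. Its differences were -0.68 (SE 0.35) and -1.22 (SE 0.35), and they became -0.02 and -0.56 against control replicate 1 alone and -1.34 and -1.88 against control replicate 2 alone. The difference between the shRNAs was 0.54 (SE 0.31) beside 0.52 in the first probe. It uses no control but sets slide 1 against slide 2. EEF1D-1357 lay wholly above in both probes, as in 6.94% of all probes. Against the control of the same slide, A_73_P340681 differed by -1.34 with EEF1D-1357 and by -0.56 with EEF1D-1893, the opposite order.

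A_73_113395, the most 3′ LTBP3 probe at chr29:45577173-45577232, read -2.49, -2.64 and -1.98 with EEF1D-1357, -1.05, -2.74 and -3.03 with EEF1D-1893, and -2.12 and -2.86 in the controls. Replicate 1 of EEF1D-1893 was the highest array and replicate 3 of the same group the lowest. Its differences were 0.12 and 0.22 (SE 0.58 each), and between the shRNAs -0.09 (SE 0.52), with all groups overlapping. The order of groups seen in the first probe was therefore present in part in the second and absent from the third. With the mean of the 3 probes in place of the brightest, the LTBP3 differences were -0.34 and -0.66.

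**Figure D4:**
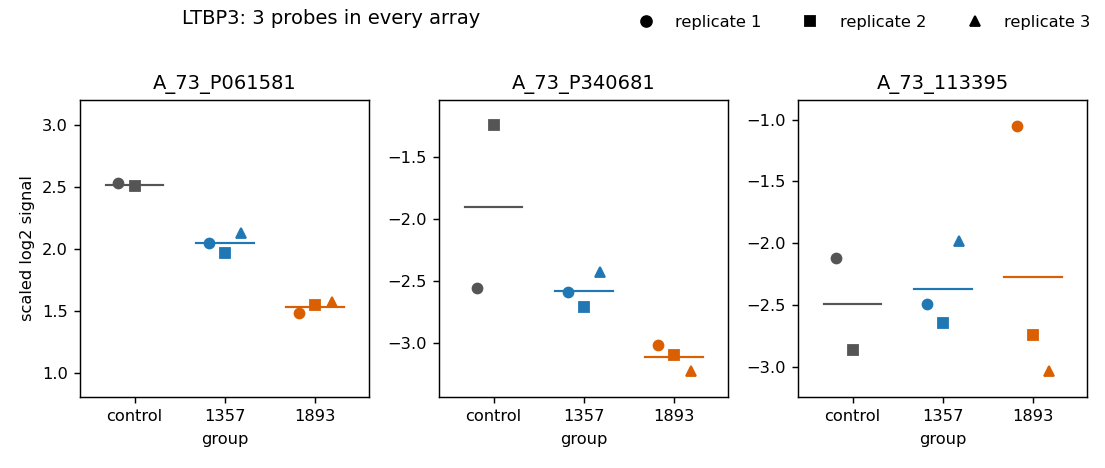
Scaled log2 signal (y axis) of the 3 LTBP3 probes in control, EEF1D-1357 and EEF1D-1893 arrays (x axis), with single arrays as symbols and group means as lines. The 3 groups are apart in A_73_P061581, only EEF1D-1893 is apart in A_73_P340681, and all groups overlap in A_73_113395, where EEF1D-1893 runs from -3.03 to -1.05.

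The genes whose profile over the 8 arrays was most like that of LTBP3 were HTRA1, CMTM7, TECPR1, TMEM63B and IRX3. Likeness was the root mean square difference between log2 profiles, each centred on its own mean. It was 0.129 for HTRA1, a secreted serine protease, 0.14 for CMTM7, 0.146 for TECPR1, which was detected on 6 arrays, and 0.153 for both TMEM63B and IRX3. The median over all other genes was 0.488, and the nearest member was at 0.318. HTRA1 had log2 differences of -0.23 with EEF1D-1357 and -0.71 with EEF1D-1893, and IRX3, a homeobox factor, had -0.39 and -0.83. These arrays are the ones on which LTBP3 was chosen, so the likeness is a description.

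Other genes of the pathway were taken from 4 lists, and in each of them 0 genes were called in any of the 3 contrasts. The list of SMAD transducers, co-regulators and intracellular inhibitors had 13 of 15 genes measured. With EEF1D-1357 against control 5 were above 0 and 8 below, where 41.4% of all genes were above. The median log2 difference was -0.08 beside -0.09 over all genes. FKBP1A was the only gene of the list with an unadjusted p under 0.05, which 16.2% of all genes had. FKBP1A, the immunophilin that keeps TGFBR1 inactive without ligand, differed by -0.39 (SE 0.15, limma adjusted p = 0.278) with EEF1D-1357 and by -0.20 with EEF1D-1893.

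SMAD4, the shared partner of the receptor-driven SMADs, read -0.57, -0.62 and -0.55 with EEF1D-1357, -0.62, -0.73 and -0.49 with EEF1D-1893, and -0.33 and -0.20 in the controls. All 6 shRNA arrays were below both controls, with differences of -0.32 (SE 0.14, limma adjusted p = 0.313) and -0.35 and of -0.38 and -0.28 on the same slide. Of all genes, 16.9% had both shRNA groups wholly on the same side of the controls. STRAP, which holds SMAD7 at the receptor, differed by 0.45 (SE 0.20, limma adjusted p = 0.325) and 0.37. SKIL, a repressor of SMAD transcription, differed between the shRNAs by -0.41 (SE 0.13, limma adjusted p = 0.747). It was singled out after its values were seen, as the only gene of this list with an unadjusted p under 0.05 there. Of all genes, 6.41% had such a p in that contrast.

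For activation and matrix storage of latent TGF-beta, 17 of 19 genes were measured, with 8 above 0 and 9 below in EEF1D-1357 against control and a median of -0.13. ITGAV, the integrin alpha V chain that pulls the ligand out of its latent complex, read 1.67, 1.76 and 1.31 with EEF1D-1357, 1.58, 1.55 and 1.04 with EEF1D-1893, and -0.05 and 0.79 in the controls. All 6 shRNA arrays were above both controls, and 16.9% of all genes had both shRNA groups wholly on the same side of the controls. The ITGAV difference was 1.21 with EEF1D-1357 (SE 0.30, limma adjusted p = 0.201) and 1.02 with EEF1D-1893. On the same slide it was 0.79 and 1.44, and against the control of the other slide 1.63 and 0.60.

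ITGB1, a beta chain that pairs with it, differed by 0.62 (SE 0.29, limma adjusted p = 0.337) and 0.45, and this rested on control replicate 1 at 3.99, since control replicate 2 at 5.09 lay within 0.1 of the EEF1D-1357 arrays. Against control replicate 2 alone the ITGB1 differences were 0.07 and -0.10. The other integrin chains of the list, ITGB6 and ITGB8, had lower means than the controls. ITGB6 differed by -0.17 (SE 0.17, limma adjusted p = 0.607) with EEF1D-1357 and by -0.28 with EEF1D-1893. ITGB8 differed by -0.68 (SE 0.39, limma adjusted p = 0.401) with EEF1D-1357 and by -1.15 with EEF1D-1893. EMILIN1, an inhibitor of TGF-beta maturation, was not well above background on any EEF1D-1357 array, and no fold is given because its control signal was also near background. MMP9 and FBN1, singled out after their values were seen, had unadjusted p under 0.05 between the shRNAs, as did 6.41% of all genes. MMP9 and FBN1 were higher with EEF1D-1357 by 1.71 (SE 0.66, limma adjusted p = 0.747) and 0.89 (SE 0.33, limma adjusted p = 0.747). The FBN1 groups overlapped. Against the control of the same slide, MMP9 differed by 0.04 with EEF1D-1357 and by -0.45 with EEF1D-1893. FBN1 differed by 0.46 and -0.07 in the same order.

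The list of the bone morphogenetic protein (BMP), activin and growth differentiation factor branch had 21 of 25 genes measured, with 10 above 0 and 11 below in EEF1D-1357 against control and a median of -0.05. INHBB, an activin subunit, differed by -0.49 (SE 0.14, limma adjusted p = 0.221) with EEF1D-1357 and -0.33 with EEF1D-1893, and was well above background on 5 arrays. CHRD, the BMP antagonist chordin, differed by -0.59 (SE 0.19, limma adjusted p = 0.233) and -0.30, and by -0.30 and -0.01 against control replicate 2 alone. Both had an unadjusted p under 0.05 in the first contrast, as did 16.2% of all genes. ENG, the co-receptor endoglin, differed by -0.46 (SE 0.21, limma adjusted p = 0.323) and -0.33, with overlapping groups.

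Of 29 genes known to respond to TGF-beta, 27 were measured. With EEF1D-1357 against control 13 were above 0 and 14 below, with a median of -0.01, and with EEF1D-1893 15 were above and 12 below, with a median of 0.05, where 46.8% of all genes were above. Between the shRNAs 9 were above and 18 below, with a median of -0.17 beside -0.05 over all genes, of which 41.5% were above. In that contrast TGFBI, SKIL and JUNB, singled out after their values were seen, had an unadjusted p under 0.05, as did 6.41% of all genes. TGFBI, a matrix protein named for its induction by TGF-beta, differed by -1.42 (SE 0.57, limma adjusted p = 0.747), with overlapping groups. JUNB, an immediate early transcription factor, differed by 0.47 (SE 0.15, limma adjusted p = 0.747). Against the control of the same slide, TGFBI differed by 0.79 with EEF1D-1357 and by 1.34 with EEF1D-1893. In the same order JUNB differed by 0.19 and 0.03, and SKIL by -0.04 and 0.35. KLF10, an early response gene, differed from control by 0.35 with EEF1D-1357 (SE 0.15, limma adjusted p = 0.310) and by 0.20 with EEF1D-1893.

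COL1A2, a chain of type I collagen, read -6.88, -7.26 and -6.65 with EEF1D-1357, none of them well above background, -6.79, -1.78 and 0.82 with EEF1D-1893, and -3.66 and 0.23 in the controls. It varied from background to bright within the EEF1D-1893 group, where replicate 1 was not well above background. The EEF1D-1357 arrays were at least 12.5-fold (3.64 in log2) lower than the mean of the 2 controls. The measured means were -6.93 and -1.71 (limma adjusted p = 0.292). The measured EEF1D-1357 mean lay -7.16 from control replicate 2 but -3.27 from control replicate 1. The bound therefore does not hold against control replicate 1 alone. For this bound, an array at background takes its lowest signal flagged as well above background. COL3A1, a chain of type III collagen, differed by -0.58 (SE 0.24, limma adjusted p = 0.294) and -0.13, and by -0.20 against control replicate 2 with EEF1D-1357. The summed level of the 8 measured fibroblast markers, which include both collagens, was 0.45 to 0.78 with EEF1D-1357, 0.73 to 2.02 with EEF1D-1893, and 1.19 to 1.55 in the controls. The part of fibroblast content in these values was not tested.

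**Figure D5:**
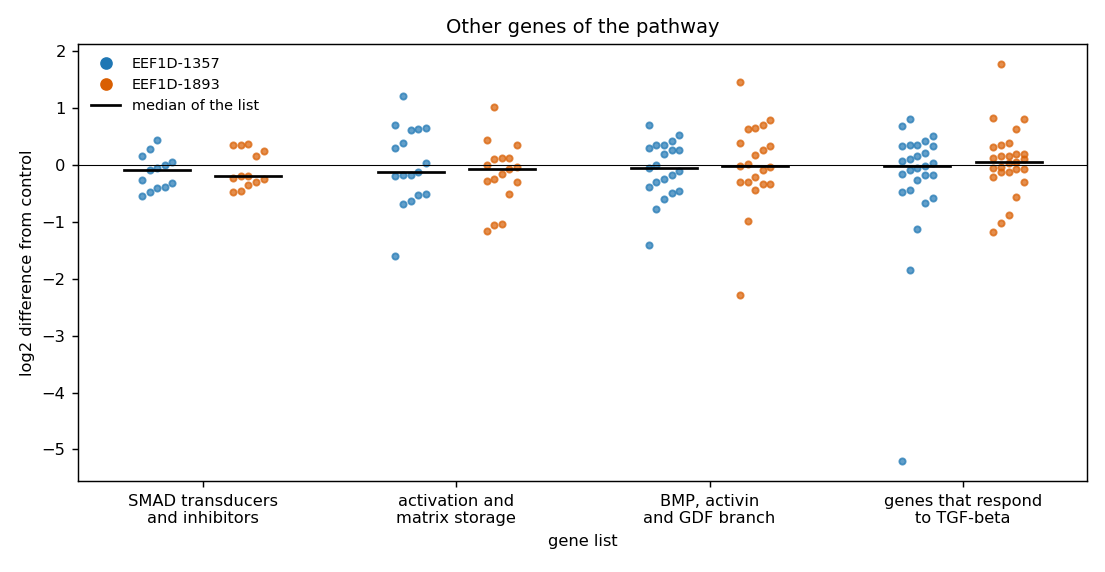
Log2 difference from control (y axis) of every measured gene in 4 lists of the pathway (x axis), for EEF1D-1357 and EEF1D-1893, with black bars at the list medians. The medians lie between -0.20 and 0.05, and the lowest point is COL1A2 with EEF1D-1357, drawn at its fitted value although it was not well above background in that group.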

How the data were processed

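Spot intensity in the Cy3 channel was read with Agilent Feature Extraction 10.7.3.1, per the file headers (9.1, per the submitters' processing notes), and is background-subtracted and detrended within an array, with a surrogate value near background. Flags of 0 or 1 per spot mark signal well above background, saturation and outliers, per the file headers. The log2 values of the deposited series table have equal quartiles in all arrays (median 7.56) and served only as an alternative. Over probes they correlated with the same array's scanner values at 0.9979 to 0.9999.

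Control spots were left out, outlier spots were masked, and spots of a probe were averaged, which kept 43439 of 43653 probes. Names came from the files or, by accession (26510 probes), from the gene table of RefSeq for ARS-UCD2.0. From each log2 intensity the array's 75th percentile was subtracted. The filter asked for a signal well above background on 2 or more arrays and left 30723 probes. The brightest probe of each gene was used, for 12617 genes.

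The fit was made with limma 3.58.1 (R 4.3.3) over the 8 arrays, with a mean for each of the 3 groups, 5 residual degrees of freedom and 2.13 added by the prior. A call needed an adjusted p (Benjamini-Hochberg, two-sided) under 0.05. The fit alone was tested on simulated arrays, with normal noise drawn separately for each gene and array and no slide effect. Masking, naming, scaling, the filter and the choice of probe were not part of that test. Precision is limited by how few arrays there are. The members, the lists and the contrasts were chosen with earlier results of these data known. Genes named from a list are the 3 with the smallest p in EEF1D-1357 against control, and those most like LTBP3 are the 5 nearest by profile. Every gene was in the fit. For LTBP3, and for all members in EEF1D-1893 against control, no p-value is printed and a call is not read as a test, since the choice used those values. The other 8 members were tested in the remaining contrasts. The alternatives were other scalings, background correction, probe filters and summaries, the deposited table, another prior, a fit of the compared groups alone, a block for slide or for replicate number, and each array left out.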

Additional observations from a re-analysis of the deposited data

How the results depend on the processing

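Against a main count of 0 called genes in each contrast, EEF1D-1357 against control gave 3 with probes detected on all 8 arrays, 2 with an intensity trend and robust prior, 28 with slide as a block, and 0 to 2912 with an array left out (28 without control replicate 1, 2912 without control replicate 2). EEF1D-1893 against control gave 1855 with slide as a block and 0 to 1855 with an array left out (1 without EEF1D-1357 replicate 3, 25 without control replicate 1, 1855 without control replicate 2). EEF1D-1357 against EEF1D-1893 gave 1 with normexp and quantile normalization, 6 with slide as a block, and 0 to 0 with an array left out. Members called were 0 to 3 with an array left out in either contrast with control (3 without control replicate 2) and 3 with slide as a block for EEF1D-1893, in each case LTBP3, TGFBR1 and TGFBR2. The calls of LTBP3, and all 3 in EEF1D-1893 against control, fall on values that the choice of members used and do not count as tests. The slide block leaves 4 residual degrees of freedom, all among the shRNA arrays, and its spread does not hold that between the controls.

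Signs turned with slide as a block for TGFB1 with EEF1D-1357 against control (0.08) and, between the shRNAs, for LTBP1 (0.40), TGFB1 (0.61), TGFBR2 (-0.76) and TGFBR3 (-1.35), and with the mean of a gene's probes for LTBP2 between the shRNAs (-0.15). With an array left out, EEF1D-1357 against control ranged from -0.12 to 0.57 for TGFB3 and from -0.64 to 0.08 for TGFB1, and EEF1D-1893 against control from -0.53 to 0.19 for TGFB1. Between the shRNAs the ranges were -0.38 to 0.09 for LTBP1, -0.68 to 1.11 for LTBP2, -0.01 to 0.24 for TGFB2, -0.47 to 0.22 for TGFB3, -0.05 to 0.13 for TGFBR2 and -0.24 to 0.34 for TGFBR3. The causes were not tested. No scaling turned the sign of a member. Median scaling moved the median of all genes with EEF1D-1357 from -0.089 to 0.029, and LTBP3 was then -0.35.

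Same-numbered arrays deviated together with correlations of -0.115 to 0.142, and 4 of 6 shRNA arrays correlated best with their own number. These values do not settle whether the numbers are pairs, and the main fit did not take them as pairs. With replicate number as a block 0 genes and 0 members were called in each contrast, and LTBP2 with EEF1D-1357 was -1.79 (SE 0.45, limma adjusted p = 0.195).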
